A study of Mus musculus with 18 samples.

Results

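Pax7-/- mouse embryoid body outgrowths of day 21 were compared with Pax7-/- embryonic stem cells of day 0 on 6 arrays, 3 per day, out of 18 arrays in the series. The arrays were chosen by the genotype and day in their titles alone. Pax7-/- day 21 stood for outgrowths that had been kept without LIF and with RA (retinoic acid) and ITS in the medium. Pax7-/- day 0 stood for undifferentiated cells grown with LIF, the cytokine that holds mouse stem cells undifferentiated. Cells of every group had the strain F1 of C57Bl6N and 129Sv, and both days compared carried the label Pax7-/-. The other arrays were Pax7-/- embryoid bodies of day 7 and the 3 matching Pax7+/+ groups, again with 3 arrays each. How the Pax7 allele was altered, how many clones were used and whether feeder cells were present is not given in the sources used here.

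Embryonic stem cells are held in the naive state by a network of transcription factors around Pou5f1, Sox2 and Nanog, with LIF acting through Stat3. Without LIF, aggregated cells form embryoid bodies, whose surface becomes extraembryonic endoderm resting on a basement membrane of laminin and collagen IV, and whose core can pass through an epiblast-like state into neural, mesodermal and endodermal cells. Pax7, a transcription factor with a paired domain, is known from satellite cells of muscle, the dorsal neural tube and the neural crest.

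The values are log2 intensities, and the arrays fell into 2 kinds. The SD of all readings of an array was 1.37 to 1.45 log2 on 10 arrays, called narrow here, and 1.79 to 1.85 log2 on the other 8, called wide. Day 21 held 1 narrow and 2 wide Pax7-/- arrays, and day 0 held 2 narrow and 1 wide, so the kind of array was a term of every test, and values are given by kind. Array medians were 4.91 to 4.97 log2 on narrow arrays and 4.55 to 4.68 on wide ones. The kinds differed in more than spread. Over the genes kept, 2 arrays of the same kind correlated at r = 0.9105 to 0.9938, whatever their day or genotype. For 2 arrays of unlike kind r was 0.6738 to 0.8222. The probe set of the targeted gene Pax7 (chr4:139737059-139833530, GRCm38.p6) read 6.12 log2 on the narrow and 5.36 and 5.53 on the wide arrays of day 21, against 6.37 and 6.02 on the narrow and 4.76 on the wide array of day 0. In Pax7+/+ cells it read 6.19, 5.61 and 5.52 at day 21 and 6.06, 6.22 and 4.79 at day 0. The genotypes overlapped at both days, and where the probes lie in relation to the altered allele is not known here, so this reading checks no label.

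Of 22180 genes, 1092 (4.92%) were higher and 897 (4.04%) lower in Pax7-/- cells at day 21 than at day 0, at an adjusted p under 0.05 (limma, Benjamini-Hochberg over all genes). At least 2-fold changes were found for 325 genes (1.47%) that were higher and 235 (1.06%) that were lower. Narrow and wide arrays gave the same sign for 60.6% of all genes and for 99.8% of those that passed. For 98.5% of the genes that passed, the 2 days did not overlap on either kind of array, against 19.7% of all genes with day 21 above and 20% with day 21 below. The genes that passed were picked by a fit that included these arrays, so neither their 99.8% nor their 98.5% is a separate check. The changes were larger on wide arrays: genes that passed had a median absolute change of 0.966 log2 there and of 0.489 log2 on narrow arrays, and 1610 of the 1989 that passed (8.97% of all genes) moved more on wide arrays. A test of whether the change itself differed between the kinds of array (limma, Benjamini-Hochberg) passed for 2013 genes, and for 5133 at an unadjusted p under 0.05. Across the 22180 genes, which share the same 6 arrays, the change on narrow arrays correlated with that on wide arrays at r = 0.495. The fit thus gives each gene 1 change for arrays on which it was often of unlike size. The term for the kind of array was estimated from all 18 arrays, so the fitted change is no plain average of both kinds. At an unadjusted p under 0.05 there were 5182 genes with a change.

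These counts depend on the term for the kind of array. Without it 7 genes passed as higher (Gkn2, Gkn1, Fzd2, Sox1, Nnat, Slc16a3 and Dpysl5) and Zfp296 as lower, with 1235 genes at an unadjusted p under 0.05. Narrow arrays alone gave 202 genes higher and 198 lower, and wide arrays alone 2994 and 2722. Leaving out the wide array of day 0 (replicate 2) left 298 higher and 299 lower, and leaving out either wide array of day 21 left 487 and 446 (replicate 2) or 446 and 433 (replicate 3). Of 169 values of single genes, not all of which had passed, 72, 50 and 51 no longer passed without each of these 3 arrays. The range of a gene group's count with any 1 of the 3 left out is therefore given beside the count where it differs. After each array was centred on its median, 880 genes were higher and 1120 lower. The labels call the samples biological replicates without saying what was independent, so p-values reflect the spread among these samples alone. For a single gene the smallest exact permutation p of 3 arrays against 3 is 0.1.

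**Figure D1:**
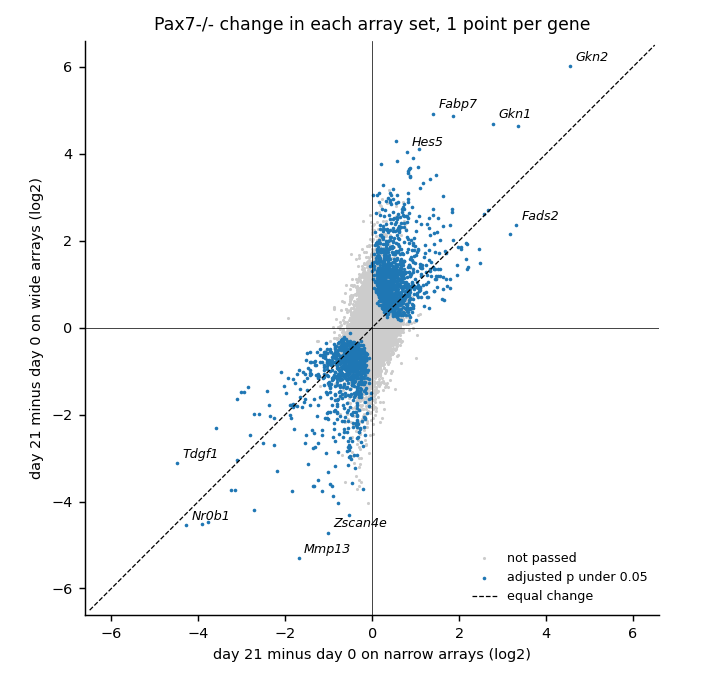
Change of each gene from day 0 to day 21 in Pax7-/- cells (day 21 minus day 0, log2), on narrow arrays (horizontal axis) and on wide arrays (vertical axis); blue points passed at an adjusted p under 0.05, grey points did not, and the dashed line marks an equal change. Gkn2 changed by 4.56 log2 on narrow and 6.02 on wide arrays, and most genes that passed lie farther from 0 on the wide axis.

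Genes were ranked by change among those that passed, moved at least 2-fold and did not overlap within either kind of array. Predicted or numbered genes and small RNAs were passed over. The largest rise of the genes ranked was that of Gkn2 (chr6:87373365-87379494, GRCm38.p6), which encodes gastrokine 2, a secreted protein of the stomach's surface mucous cells. Gkn2 read 10.27 log2 on the narrow and 11.00 and 11.45 on the wide arrays of day 21, against 5.97 and 5.44 on the narrow and 5.20 on the wide array of day 0. Every day 21 array stood far above every day 0 array, and the fitted change was 5.33 ± 0.41 log2 (SE, n = 3 per day, adjusted p = 1.23e-06), or 40.3-fold. Its neighbour Gkn1 (chr6:87345653-87350915), the second gastrokine gene, read 8.72 on the narrow and 9.37 and 10.05 on the wide arrays of day 21, against 5.91 and 5.94 on the narrow and 5.02 on the wide array of day 0. It was higher on all day 21 arrays as well, by 3.87 ± 0.42 log2 (adjusted p = 4.36e-05). Pga5, the precursor of the stomach protease pepsin, rose by 2.62 ± 0.40, and Mucl3, a mucin-like membrane protein gene, by 2.68 ± 0.57. Of 12 stomach and gut genes measured, Gkn1, Gkn2 and the transcription factor gene Sox21 (1.47 ± 0.38) were higher (25%, against 4.92% of all genes). Of the list 0 were lower and 9 did not pass. With any 1 wide array left out Sox21 no longer passed, which left the neighbours Gkn1 and Gkn2. The trefoil factor genes Tff1 and Tff2 came to 0.47 and -0.01, the stomach claudin gene Cldn18 to -0.11, and the stomach mesenchyme regulator Barx1 to -0.13. The list's median was 0.16 log2, against -0.00332 over all genes.

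**Figure D2:**
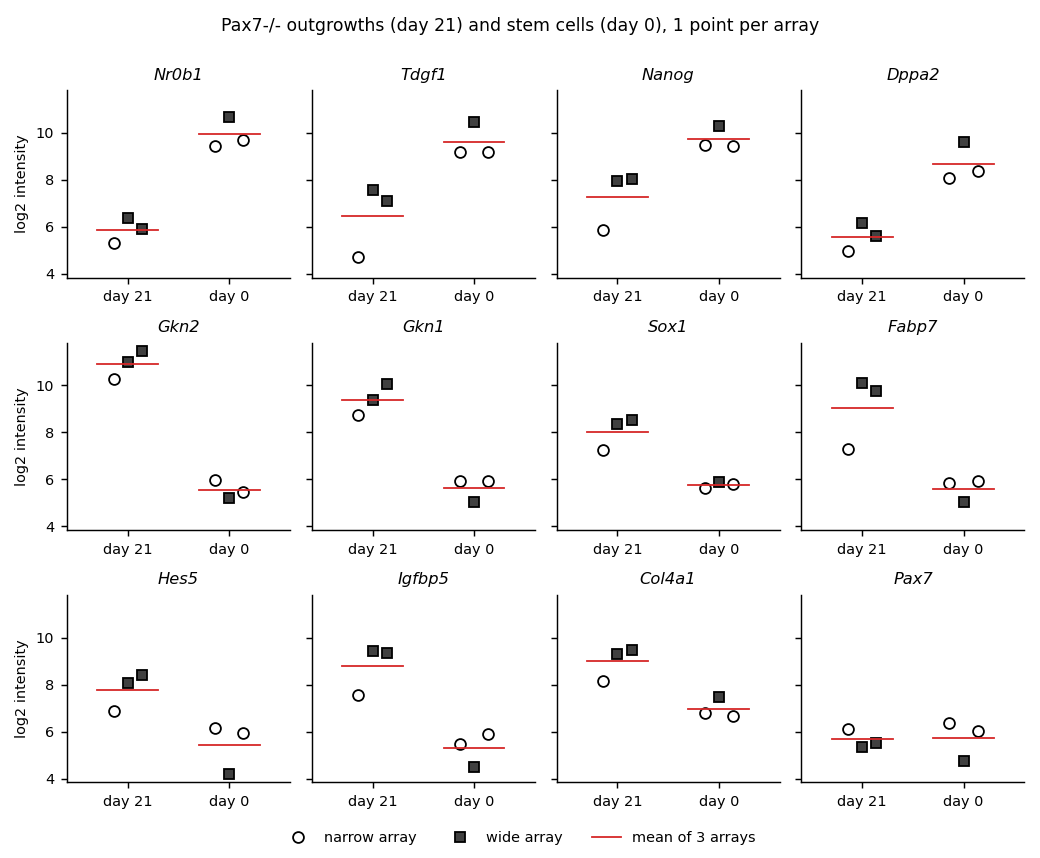
Log2 intensity of 12 genes in Pax7-/- cells at day 21 (left in each panel) and day 0 (right), with 1 point per array (circles narrow, squares wide) and the mean of 3 arrays as a red line. Nr0b1, Tdgf1, Nanog and Dppa2 are lower on every day 21 array, the next 7 genes are higher on every day 21 array, and Pax7 overlaps between the days.

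Most genes of the stem cell network fell. Of 26 measured pluripotency genes, 22 (84.6%) were lower, 1 was higher and 3 did not pass, with a median change of -1.66 log2 (narrow arrays -1.10, wide arrays -2.33). With any 1 of the 3 wide arrays left out, 13 to 16 were lower and 0 to 1 higher. Nr0b1, a nuclear receptor gene that stem cells express with Pou5f1, read 5.31 log2 on the narrow and 6.40 and 5.90 on the wide arrays of day 21, against 9.45 and 9.72 on the narrow and 10.70 on the wide array of day 0. All 3 outgrowth arrays lay below all 3 stem cell arrays, with a change of -4.51 ± 0.45 log2 (adjusted p = 1.94e-05), or 22.8-fold lower. Tdgf1, the Nodal co-receptor Cripto, read 4.71 on the narrow and 7.58 and 7.12 on the wide arrays of day 21, against 9.21 and 9.18 on the narrow and 10.47 on the wide array of day 0 (-3.71 ± 0.31, adjusted p = 3.07e-06). Nanog, a core factor of the network, read 5.86 on the narrow and 7.97 and 8.03 on the wide arrays of day 21, against 9.47 and 9.43 on the narrow and 10.31 on the wide array of day 0 (-2.83 ± 0.33, adjusted p = 6.99e-05). Both were lower on each day 21 array without overlap, and on the wide day 21 arrays both still read well above the array medians. Dppa2, a chromatin factor gene of early embryos, came to -3.49 ± 0.34.

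The other members of the network fell by smaller amounts. Zfp42 (Rex1), a marker of naive cells, changed by -2.49 ± 0.38 and Utf1, a chromatin factor of stem cells, by -2.29 ± 0.28. Fgf4, a target of Pou5f1 and Sox2, changed by -2.25 ± 0.45, and Klf5, Tfcp2l1 and Tbx3, transcription factors of the LIF-driven circuit, by -1.97 ± 0.28, -1.95 ± 0.22 and -1.81 ± 0.25. Pou5f1 itself read 5.95 log2 on the narrow and 6.0 and 5.80 on the wide arrays of day 21, against 6.98 on both narrow arrays and 7.43 on the wide array of day 0 (-1.17 ± 0.19, adjusted p = 0.00116). Sox2, which is also a factor of neural progenitors, had the second smallest fall of the list, -0.75 ± 0.21 (adjusted p = 0.0352). It read 7.88 on the narrow and 9.63 and 9.74 on the wide arrays of day 21, against 8.79 and 8.92 on the narrow and 10.22 on the wide array of day 0. Every day 21 reading of Sox2 lay below its own kind of day 0 array, but far above the array medians. Klf2, Dppa3 and Dppa5a did not pass, and Dppa5a was not above the array median on any day 21 array. In bulk RNA, fewer cells of a type and less RNA per cell cannot be told apart.

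Promoter windows of the 3 genes that fell and hold an octamer-like motif are shown, since the network's factors are known to bind such motifs. Each runs from 250 bases before to 50 after the start of the transcript, in the transcript's direction (RefSeq, GRCm38.p6). Capitals mark TTTGCAT, an octamer-like motif of the kind bound by Pou5f1, and ACAATG, a Sox-like motif, on either strand. The windows are Nanog chr6:122707239-122707538 (+), Sox2 chr3:34649745-34650044 (+) and Zfp42 chr8:43306960-43307259 (-).
Nanog: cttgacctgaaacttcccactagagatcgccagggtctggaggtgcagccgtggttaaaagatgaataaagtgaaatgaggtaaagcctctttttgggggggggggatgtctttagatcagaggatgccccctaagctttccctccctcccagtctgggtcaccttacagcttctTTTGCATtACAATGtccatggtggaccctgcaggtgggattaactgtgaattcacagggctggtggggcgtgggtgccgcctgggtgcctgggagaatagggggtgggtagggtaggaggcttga
Sox2: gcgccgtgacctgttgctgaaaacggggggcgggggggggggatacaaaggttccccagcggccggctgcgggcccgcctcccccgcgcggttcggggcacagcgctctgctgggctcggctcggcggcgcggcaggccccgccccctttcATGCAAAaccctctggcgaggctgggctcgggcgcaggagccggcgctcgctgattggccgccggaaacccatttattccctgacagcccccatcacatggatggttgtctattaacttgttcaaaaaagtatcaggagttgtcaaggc
Zfp42: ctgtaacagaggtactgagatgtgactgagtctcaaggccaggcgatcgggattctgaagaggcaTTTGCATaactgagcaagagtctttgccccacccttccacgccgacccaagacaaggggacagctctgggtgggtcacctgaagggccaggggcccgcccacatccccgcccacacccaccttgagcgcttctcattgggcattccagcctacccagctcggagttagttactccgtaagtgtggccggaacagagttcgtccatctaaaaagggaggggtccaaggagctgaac

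In Nanog's window the 2 motifs stand 1 base apart, with the octamer-like one starting 75 bases before the transcript's start. TTTGCAT was found in 3 of the 14 fallen pluripotency genes that had a window (21.4%), in 1 of 11 neural progenitor genes that rose (9.09%) and in 4.63% of all 32851 windows. ACAATG was found in 3 of the same 14, in 1 of the 11 and in 12.6% of all windows. Both strands were searched, a gene with several windows had more chances of a match, and a match is a description of these letters and not of binding.

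Around the core network, most LIF signalling genes did not pass. Of 10, the kinase genes Pim1 (-1.01 ± 0.28) and Pim3 (-1.0 ± 0.21), targets of Stat3, were lower (20%, against 4.04% of all genes). With a wide array left out 0 to 1 were lower. Of the list 0 were higher and 8 did not pass, among them the receptor genes Lifr (-0.17) and Il6st (0.30) and Stat3 (-0.17). Of 9 genes of the rare 2-cell-like state, 3 were lower (0 to 1 with a wide array left out) and 6 did not pass. Zscan4c, a telomere regulator of that state, read 4.54 log2 on the narrow and 3.80 and 3.96 on the wide arrays of day 21, against 5.32 and 5.60 on the narrow and 7.53 on the wide array of day 0 (-2.15 ± 0.57, adjusted p = 0.0275). The others were Zscan4d (-1.68 ± 0.41) and the translation factor gene Eif1a (-0.67 ± 0.14). Zscan4e, which is on no gene list, was among the 12 largest falls of the genes ranked (-2.83 ± 0.67, adjusted p = 0.0163). It did not pass with any wide array left out. Zscan4e and Zscan4d are near-identical copies of Zscan4c, so these probe sets may read the same RNA. In all 3 copies the wide day 0 array stood above all others, and Zscan4c changed by -0.92 on narrow and -3.65 on wide arrays. Of 13 germ line genes 5 were lower (1 with any wide array left out), 0 higher and 8 did not pass (median change -1.05 log2, narrow arrays -0.25, wide arrays -2.41). They were Mael (-2.40 ± 0.56), Ddx4 (-1.73 ± 0.50), Mov10l1 (-1.59 ± 0.36) and Piwil2 (-1.32 ± 0.32), which act in the piRNA pathway or in germ cell granules, and Stag3 (-1.99 ± 0.32), a cohesin subunit of meiosis.

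The 12 largest falls of the genes ranked held 4 more that are on none of the gene lists. Zfp640, a zinc finger gene, had the second largest fall and read 3.17 log2 on the narrow and 5.18 and 4.13 on the wide arrays of day 21, against 7.36 and 6.53 on the narrow and 9.13 on the wide array of day 0 (-4.33 ± 0.54, adjusted p = 0.000138). Jam2, a junctional adhesion protein gene, read 5.37 on the narrow and 6.90 and 7.02 on the wide arrays of day 21, against 8.52 and 8.48 on the narrow and 10.02 on the wide array of day 0 (-3.15 ± 0.17, adjusted p = 8.07e-08). Its fall was nearly the same on both kinds of array, -3.12 on narrow and -3.05 on wide ones. H2ac1, a histone H2A gene of germ cells, came to -3.33 ± 0.66 (adjusted p = 0.00544, not passing without the wide array of day 0). Cobl, which nucleates actin filaments, came to -2.80 ± 0.34 (adjusted p = 0.000116), -1.85 on narrow and -3.76 on wide arrays.

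Genes that set DNA methylation moved both ways. Tet2 and Tet1, dioxygenases that oxidise methylated cytosine, changed by -2.66 ± 0.17 and -1.77 ± 0.16 log2, and Dnmt3l, a cofactor of the de novo methyltransferases, by -1.88 ± 0.29. Tet2 read 5.42 on the narrow and 7.65 and 7.35 on the wide arrays of day 21, against 8.35 and 8.12 on the narrow and 9.97 on the wide array of day 0. Dnmt3b, the de novo methyltransferase gene of the epiblast, rose by 1.30 ± 0.20 (adjusted p = 0.000822) and Tet3 by 1.12 ± 0.31. Dnmt3b read 7.02 on the narrow and 9.16 and 8.83 on the wide arrays of day 21, against 5.98 and 5.81 on the narrow and 7.61 on the wide array of day 0. The days did not overlap on either kind of array for Tet2 or for Dnmt3b, and they went opposite ways. Dnmt1, Dnmt3a and Uhrf1, which maintain or set methylation more widely, came to 0.11, -0.03 and -0.07 and did not pass. With a wide array left out the 3 that were lower passed, and 1 of the 2 that were higher.

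The primed epiblast list was also split. Of 11 genes, 6 (54.5%) were higher, 3 (27.3%) lower and 2 did not pass, and with a wide array left out 2 were higher and 1 lower. Otx2, a factor of the epiblast and of the forebrain, read 6.49 log2 on the narrow and 7.83 on both wide arrays of day 21, against 5.34 and 5.62 on the narrow and 5.37 on the wide array of day 0 (1.69 ± 0.27, adjusted p = 0.000916). Sall2 (1.45 ± 0.28), Lef1 (1.29 ± 0.35), which mediates Wnt signals, the growth factor gene Fgf5 (1.04 ± 0.28), Zic2 (0.70 ± 0.17) and Pou3f1 (0.67 ± 0.18) were higher as well. Several of these 6 also act in neural cells. Those that fell were the TGF-beta family ligand genes Nodal (-1.46 ± 0.21) and Lefty2 (-1.57 ± 0.43), which pattern the early embryo, and Foxd3 (-1.20 ± 0.31).

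MicroRNA loci of stem cells moved both ways. Of the Mir290a cluster only Mir290a was measured, and Mir291a, Mir292a, Mir293, Mir294 and Mir295 were not. The mature forms are shown because the array's probe sets read the loci they are cut from and not the mature RNA, and because their seeds overlap. Capitals mark the seed, bases 2 to 8 from the 5′ end (RefSeq, GRCm38.p6), for mmu-miR-290a-3p at chr7:3218674-3218697 (+), mmu-miR-302c-3p at chr3:127545406-127545427 (+) and mmu-miR-302d-3p at chr3:127545665-127545687 (+).
mmu-miR-290a-3p: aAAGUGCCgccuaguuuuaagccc
mmu-miR-302c-3p: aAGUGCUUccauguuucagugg
mmu-miR-302d-3p: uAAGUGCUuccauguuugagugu

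All 3 seeds contain AGUGC. Mir290a, of the cluster that mouse naive cells express, read 4.15 log2 on the narrow and 3.37 and 3.25 on the wide arrays of day 21, against 4.29 and 4.78 on the narrow and 6.55 on the wide array of day 0 (-1.86 ± 0.51, adjusted p = 0.0321). Mir302c, of the cluster that primed cells express, read 3.88 on the narrow and 5.36 and 5.38 on the wide arrays of day 21, against 3.50 and 3.69 on the narrow and 4.05 on the wide array of day 0 (1.03 ± 0.28, adjusted p = 0.0299). The 2 loci went opposite ways, and on narrow arrays the differences were small, -0.39 for Mir290a and 0.28 for Mir302c, at levels below the array medians. Mir302d came to 0.65 ± 0.16, none of these 3 loci passed with a wide array left out, and Mir302a (0.68), Mir302b (0.17) and Mir367 (0.31) did not pass.

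Among genes of the Lin28 and let-7 axis, which stay on in fetal tissues, the Lin28 genes were higher. Of 7 measured, 4 (57.1%) were higher (1 to 2 with a wide array left out), 0 lower and 3 did not pass, of which Myc (-0.47) and Trim71 (-0.40) were lower at an unadjusted p under 0.05 (adjusted p = 0.0949 and 0.0843). Igf2bp3, an RNA-binding protein gene of fetal tissues, rose by 1.32 ± 0.14 log2 (adjusted p = 3.89e-05), the let-7 blockers Lin28b and Lin28a by 1.05 ± 0.27 and 0.52 ± 0.13, and the chromatin protein gene Hmga2, a let-7 target, by 0.58 ± 0.13. Lin28a is the pluripotency gene that was higher: it read 7.64 on the narrow and 8.16 and 8.49 on the wide arrays of day 21, against 7.13 and 6.82 on the narrow and 7.90 on the wide array of day 0. Of 28 measured loci of differentiation microRNAs, including let-7, Mirlet7c-2 was lower (-0.44 ± 0.11, not passing with any wide array left out) and 27 did not pass.

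Neural progenitor genes had the largest share of higher members among the 48 gene lists used. Of 18 measured, 14 (77.8%, against 4.92% of all genes) were higher, 0 were lower and 4 did not pass, with a median change of 1.02 log2 (narrow arrays 0.49, wide arrays 1.36). With a wide array left out, 5 to 11 passed, and without that of day 0 Fabp7 and Hes5 did not. Fabp7, the fatty acid binding protein of radial glia, read 7.28 log2 on the narrow and 10.11 and 9.77 on the wide arrays of day 21, against 5.85 and 5.91 on the narrow and 5.02 on the wide array of day 0 (3.03 ± 0.62, adjusted p = 0.007). Sox1, the transcription factor of the neural plate, read 7.23 on the narrow and 8.36 and 8.51 on the wide arrays of day 21, against 5.63 and 5.80 on the narrow and 5.90 on the wide array of day 0 (2.19 ± 0.26, adjusted p = 7.9e-05). Hes5, a Notch target of neural progenitors, read 6.86 on the narrow and 8.07 and 8.41 on the wide arrays of day 21, against 6.17 and 5.95 on the narrow and 4.20 on the wide array of day 0 (2.44 ± 0.51, adjusted p = 0.00748). No day 21 array overlapped a day 0 array in any of the 3 genes. The forebrain factor Otx1 (1.71 ± 0.34), the RNA-binding protein gene Msi1 (1.65 ± 0.25), Irx3 (1.58 ± 0.38), Emx2 (1.09 ± 0.27), the intermediate filament gene Nes (1.03 ± 0.21), Pax6 (1.01 ± 0.18) and Lhx2 (0.98 ± 0.18) were higher too. En2 (-0.41), Olig2 (0.54) and the proneural genes Neurog1 (0.38) and Neurog2 (0.15) did not pass.

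Among the 12 largest rises of the genes ranked were 2 more of neural tissue. Prtg, a cell surface protein of the early neural tube, read 8.30 log2 on the narrow and 9.52 and 9.87 on the wide arrays of day 21, against 5.02 and 4.86 on the narrow and 5.06 on the wide array of day 0 (3.78 ± 0.48, adjusted p = 0.00014). Dpysl2, a microtubule protein of growing axons that other cells express too, read 8.07 on the narrow and 9.89 and 9.97 on the wide arrays of day 21, against 5.32 and 5.50 on the narrow and 7.23 on the wide array of day 0 (2.58 ± 0.19, adjusted p = 6.52e-07). Mature neuron genes were mixed: of 20, 4 were higher (0 to 2 with a wide array left out), 1 lower and 15 did not pass. Snap25, of synaptic vesicle fusion, came to 1.27 ± 0.31, the stathmin gene Stmn3 to 0.91 ± 0.19, and the dendrite microtubule gene Map2 to 0.78 ± 0.18. The stathmin gene Stmn2 changed by -1.90 ± 0.17 (adjusted p = 6.84e-06), and Tubb3 (0.21), Dcx (0.71) and Syt1 (0.31) did not pass. Sox9, a factor of glia, crest and cartilage, rose by 1.85 ± 0.26 as the 1 of 8 neural crest and Schwann cell genes that passed, while Sox10 came to 0.29.

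Notch and Wnt signalling genes were higher where they passed. In the Notch pathway 7 of 15 genes (46.7%, 3 to 4 with a wide array left out) were higher, 0 lower and 8 did not pass: the ligand Jag1 (1.10 ± 0.17), the receptors Notch1 (0.55 ± 0.11), Notch2 (0.84 ± 0.17) and Notch3 (0.79 ± 0.18), the receptor-modifying enzyme Lfng (1.29 ± 0.25), and the targets Hes1 (0.92 ± 0.21) and Hey1 (0.99 ± 0.26). In the Wnt pathway 6 of 18 (33.3%, 2 to 3 with a wide array left out) were higher and 0 lower. The receptor gene Fzd2 read 6.66 log2 on the narrow and 7.44 and 7.70 on the wide arrays of day 21, against 4.82 and 4.84 on the narrow and 4.83 on the wide array of day 0 (2.23 ± 0.21, adjusted p = 1.08e-05). Its day 0 readings were nearly the same on both kinds of array. The receptor Fzd7 (0.87 ± 0.13), the feedback inhibitors Nkd1 (1.03 ± 0.28) and Axin2 (0.81 ± 0.24), the ligand Wnt3 (0.59 ± 0.15) and the secreted inhibitor Sfrp1 (0.55 ± 0.13) were also higher.

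Genes of FGF and TGF-beta signalling moved both ways. The FGF receptors Fgfr2 (1.72 ± 0.29) and Fgfr1 (0.81 ± 0.13) and the ligands Fgf15 (1.29 ± 0.32) and Fgf8 (0.65 ± 0.18) were higher. The ERK feedback inhibitors Spry4 (-2.74 ± 0.30), Spry2 (-0.62 ± 0.13) and Dusp6 (-0.73 ± 0.14) and the ERK-induced factor Etv5 (-1.22 ± 0.18) were lower, whereas 2 other inhibitors, Spry1 (0.81 ± 0.21) and Dusp4 (0.82 ± 0.10), were higher. In all, 6 of 17 were higher (3 with a wide array left out), 4 lower (likewise 3 to 4) and 7 did not pass. Of 22 TGF-beta and BMP genes, 7 were higher (1 to 2 with a wide array left out), 3 lower (likewise 2) and 12 did not pass. The BMP-induced repressor genes Id2 (1.88 ± 0.15), Id4 (0.99 ± 0.28) and Id3 (0.80 ± 0.21), the ligand Bmp7 (1.17 ± 0.32) and the receptor Tgfbr2 (1.23 ± 0.32) rose, and the ligand Bmp4 (-1.76 ± 0.25), the BMP antagonist Grem1 (-1.52 ± 0.44) and the inhibitory Smad7 (-0.93 ± 0.17) fell.

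Retinoic acid was added to the outgrowths, and 2 of 16 genes of its pathway were higher (1 with any wide array left out), 1 lower (likewise 0 to 1) and 13 did not pass. Crabp2, which carries retinoic acid to its receptors, came to 1.48 ± 0.28 log2, the receptor gene Rxrg to 0.59 ± 0.17, and the receptor gene Rarg to -1.18 ± 0.24. The direct targets Cyp26a1 (-0.17) and Rarb (0.19) did not pass. None of the 36 measured Hox genes, which pattern the body axis and which retinoic acid can induce, passed in the limma fit. At an unadjusted p under 0.05, 3 were lower and 0 higher (5182 of all 22180 genes either way). Hoxa10 came to -0.33 ± 0.13 (adjusted p = 0.125) and Hoxa7 to -0.47 ± 0.18. Their median was -0.11 log2, from -0.82 to 0.28.

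Basement membrane genes split. Of 16, 6 (37.5%, the same number with any wide array left out) were higher, 3 lower (likewise 1 to 2) and 7 did not pass. Nid1, which links laminin to collagen IV, rose by 2.19 ± 0.36 log2, and the collagen IV genes Col4a1 and Col4a2 by 1.75 ± 0.28 and 1.6 ± 0.27. The laminin-111 chains Lamb1, Lama1 and Lamc1 rose by 1.53 ± 0.22, 1.41 ± 0.20 and 1.26 ± 0.18. Col4a1 read 8.17 on the narrow and 9.32 and 9.48 on the wide arrays of day 21, against 6.80 and 6.67 on the narrow and 7.48 on the wide array of day 0. Lama1 read 9.16 on the narrow and 10.59 and 10.67 on the wide arrays of day 21, against 7.87 and 7.93 on the narrow and 9.41 on the wide array of day 0. Both were above day 0 on either kind of array, and Lama1 was already high at day 0. Lama5, Nid2 and Hspg2 were lower, at -0.44 ± 0.12, -0.90 ± 0.12 and -0.34 ± 0.10. Of 6 parietal endoderm markers (Lama1, Lamb1, Col4a1, Thbd, Plat and Sparc), 5 were higher. Lama1, Lamb1 and Col4a1 are also basement membrane genes given above, and Sparc is among the matricellular genes below. The count is thus not separate from theirs. The markers' mean level was 8.30 on the narrow and 9.52 and 9.53 on the wide arrays of day 21. On day 0 it was 7.33 and 7.42 on narrow arrays and 8.23 on the wide array.

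Visceral endoderm and liver genes moved less. Of 23 measured, Gata6, the endoderm transcription factor (1.6 ± 0.28), and Dab2, an endocytic adaptor (0.93 ± 0.15), were higher, 0 were lower (0 to 1 with a wide array left out) and 21 did not pass, with a median of 0.30 log2. Afp, the fetal serum protein, read 6.49 log2 on the narrow and 7.45 and 6.19 on the wide arrays of day 21, against 5.62 and 5.53 on the narrow and 5.04 on the wide array of day 0. All day 21 readings were higher but scattered, and the change of 1.06 ± 0.63 did not pass (adjusted p = 0.333). Alb (0.34) was not above the array median on any day 21 array, and the endoderm factor Foxa2 (0.99) did not pass.

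Most genes of heart muscle and of skeletal muscle, a lineage Pax7 is known for, did not pass. Of 23 cardiac genes, 3 were higher (13%, against 4.92% of all genes), 0 lower and 20 did not pass. With any wide array left out 0 were higher. Their median change was 0.67 log2 (narrow arrays 0.06, wide arrays 1.40). At an unadjusted p under 0.05, 13 were higher and 0 lower (5182 of all 22180 genes either way). For 12, day 21 lay above day 0 without overlap on either kind of array (19.7% of all genes). Actc1, cardiac alpha-actin, read 5.76 on the narrow and 7.85 and 7.17 on the wide arrays of day 21, against 4.83 and 4.84 on the narrow and 3.61 on the wide array of day 0 (2.44 ± 0.56, adjusted p = 0.0133). Its day 21 arrays all stood above those of day 0, by 0.93 on narrow and 3.91 on wide arrays. The troponin gene Tnnt2 (1.83 ± 0.51) and the atrial myosin gene Myh6 (1.06 ± 0.31) were the others, and the myosin light chain gene Myl7 (1.97 ± 0.66, adjusted p = 0.0761) and the regulator Nkx2-5 (-0.28) did not pass. Of 22 skeletal muscle genes Acta1 (1.27 ± 0.34), which heart muscle also expresses, was higher (4.55%, 0 with any wide array left out) and 21 did not pass. At an unadjusted p under 0.05, 7 were higher and 0 lower. The myogenic regulators Myod1, Myf5, Myf6 and Myog came to 0.38, 0.12, 0.26 and -0.03. Of 18 somite and paraxial mesoderm genes, Eya1 (1.26 ± 0.27) and Foxc1 (0.64 ± 0.16) were higher (0 to 2 with a wide array left out), Tcf15 (-1.89 ± 0.52) was lower (likewise 0) and 15 did not pass, among them Pax3 (0.57). Of 15 smooth muscle genes the tropomyosin gene Tpm1 (0.96 ± 0.14) was higher and 14 did not pass.

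Mesenchyme and matrix genes gave a mixed picture. Of 19 mesenchymal genes 6 (31.6%, 2 to 3 with a wide array left out) were higher, 1 lower (likewise 0) and 12 did not pass. N-cadherin, Cdh2, which neural and mesenchymal cells share, rose by 1.81 ± 0.19 log2, the receptor gene Pdgfra, which extraembryonic endoderm also expresses, by 1.72 ± 0.30, and Nr2f1 by 1.12 ± 0.26. Thy1 changed by -1.06 ± 0.27, and Twist1 (0.26), Prrx1 (-0.38) and Pdgfrb (0.28) did not pass. Of 25 fibrillar matrix genes 4 were higher (2 with a wide array left out), the collagen III gene Col3a1 (1.30 ± 0.39), the proteoglycan gene Vcan (1.04 ± 0.23) and the collagen-modifying enzymes Plod2 (1.56 ± 0.23) and P4ha1 (1.03 ± 0.23). The small proteoglycan gene Bgn changed by -2.18 ± 0.33, and 20 did not pass, including Col1a1 (0.49) and Col1a2 (0.35). The mean of 10 fibroblast markers was 5.80 on the narrow and 6.71 and 7.40 on the wide arrays of day 21, against 5.71 and 5.72 on narrow arrays and 6.14 on the wide array of day 0, and 2 of the 10 were higher and 1 lower. The part of fibroblast content in the matrix changes was not tested.

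Matricellular genes rose in 3 cases. Ccn1 and Ccn2, secreted targets of YAP, read 8.60 and 8.67 log2 on the narrow array of day 21, against 6.39 and 6.50 for Ccn1 and 6.96 and 7.00 for Ccn2 on the narrow arrays of day 0. They rose by 2.08 ± 0.20 (adjusted p = 1.08e-05) and 1.79 ± 0.12 (adjusted p = 3.53e-07), and by like amounts on wide arrays, 1.94 and 1.72. Of 11 matricellular genes these and Sparc (0.67 ± 0.12) were higher, Tnc (-1.84 ± 0.32) was lower and 7 did not pass. Mmp13, collagenase 3, changed by -3.31 ± 0.63, with readings of 4.32 on the narrow and 3.63 and 3.42 on the wide arrays of day 21, against 5.93 and 6.08 on the narrow and 8.84 on the wide array of day 0. The protease inhibitor Timp1 (-1.63 ± 0.19) and the gelatinase Mmp9 (-1.42 ± 0.38) also fell, and the gelatinase Mmp2 (1.42 ± 0.17) and Adamts5 (0.98 ± 0.26) rose, with 10 of 15 not passing. With any wide array left out 1 of these proteases and inhibitors was higher and 2 were lower.

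Most genes of insulin-like growth factor (IGF) signalling were higher. Of 14, 9 (64.3%, 3 to 7 with a wide array left out) were higher, 2 lower (likewise 0 to 2) and 3 did not pass, with a median of 0.80 log2. Igfbp5, which binds IGFs outside the cell, read 7.55 log2 on the narrow and 9.44 and 9.35 on the wide arrays of day 21, against 5.48 and 5.89 on the narrow and 4.51 on the wide array of day 0 (3.18 ± 0.50, adjusted p = 0.000885). The growth factor Igf2 came to 1.50 ± 0.30, the receptors Igf1r and Insr to 0.85 ± 0.15 and 0.75 ± 0.14, and the adaptors Irs4, Irs1 and Irs2 to 1.69 ± 0.39, 1.31 ± 0.36 and 1.19 ± 0.25. The clearance receptor Igf2r (-0.86 ± 0.19) and Igfbp7 (-1.06 ± 0.23) fell. Ligand, signalling receptors and adaptors were all among the genes that rose, while the receptor that removes Igf2 fell.

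Imprinted genes, which are expressed from 1 parental copy, moved both ways. Of 15, 9 (60%, 7 to 8 with a wide array left out) were higher, 3 lower (likewise 2 to 3) and 3 did not pass. Among those that rose, Nnat (2.19 ± 0.32), Peg3 (1.99 ± 0.18), Igf2, Mest (1.50 ± 0.26), Sgce (1.39 ± 0.15), Plagl1 (1.21 ± 0.31), Ndn (1.01 ± 0.19) and Peg10 (0.85 ± 0.14) are known as paternally expressed and the noncoding RNA gene Rian (1.35 ± 0.25) as maternally expressed. Those that fell, Phlda2 (-2.07 ± 0.33), Grb10 (-1.75 ± 0.29) and Igf2r, are known in most tissues as maternally expressed growth restrainers. The arrays did not separate the parental copies. Peg3 read 9.28 log2 on the narrow and 10.79 and 10.24 on the wide arrays of day 21, against 7.22 and 7.24 on the narrow and 8.70 on the wide array of day 0, without overlap on either kind of array.

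A pair of fatty acid desaturase genes, on none of the gene lists, were among the 12 largest rises. Fads2, the rate-limiting desaturase of long polyunsaturated fatty acids, read 9.63 log2 on the narrow and 10.71 and 10.61 on the wide arrays of day 21, against 6.31 and 6.33 on the narrow and 8.30 on the wide array of day 0 (2.79 ± 0.20, adjusted p = 5.13e-07). Scd1, which makes monounsaturated fatty acids, read 8.75 on the narrow and 9.92 and 9.44 on the wide arrays of day 21, against 5.27 and 5.90 on the narrow and 7.53 on the wide array of day 0 (2.48 ± 0.28, adjusted p = 5.05e-05). Both were larger on narrow than on wide arrays, 3.31 against 2.36 for Fads2. Of 15 hypoxia and glycolysis genes, 5 (33.3%, 4 to 5 with a wide array left out) were higher and 0 lower: the glucose transporter Slc2a1 (1.37 ± 0.19), the hypoxia factor Epas1 (1.33 ± 0.17), Pfkl (0.80 ± 0.17), Ldha (0.79 ± 0.14) and Pgk1 (0.73 ± 0.16). Hif1a (-0.19) and Vegfa (0.23) did not pass.

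Several nucleolar and mitosis genes were lower, by amounts under 1 log2. Counts below at an unadjusted p under 0.05 stand against 5182 of all 22180 genes, in either direction. Of 19 replication genes, Pola1, of DNA polymerase alpha, was lower (-0.64 ± 0.15, 0 to 1 with a wide array left out), 0 were higher and 18 did not pass, with 7 lower at an unadjusted p under 0.05. Of 19 mitosis genes 6 (31.6%, against 4.04% of all genes) were lower (1 to 2 with a wide array left out), among them the cyclin gene Ccna2 (-0.76 ± 0.22), the kinesin gene Kif11 (-0.71 ± 0.12) and the survivin gene Birc5 (-0.60 ± 0.18), Mki67 was higher (0.53 ± 0.14, not passing with any wide array left out) and 12 did not pass, with Top2a at 0.01. Of 17 cell cycle brakes and p53 targets Btg2 was higher (1.47 ± 0.17), Mdm2, the p53 inhibitor, was lower (-1.41 ± 0.16) and 15 did not pass, with Cdkn1a at -0.09. Of 19 nucleolar genes of ribosome assembly 8 (42.1%, 2 to 6 with a wide array left out) were lower, 0 higher and 11 did not pass, with a median of -0.50 log2 and 14 lower at an unadjusted p under 0.05, with Nop58 at -0.97 ± 0.15, Heatr1 at -0.77 ± 0.16 and Gnl3 and Wdr43 each at -0.68. None of 16 ribosomal protein genes passed in the limma fit, from -0.42 to 0.33, and 3 were lower at an unadjusted p under 0.05, with Rpl32 at -0.33 ± 0.10 (adjusted p = 0.0601) and Rps18 at -0.42 ± 0.17 (adjusted p = 0.147). Without the term for the kind of array the signs of Kif11, Birc5, Gnl3 and Wdr43 turned (0.09, 0.21, 0.15 and 0.10).

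Among markers of other cell types that an outgrowth can hold, those of blood were near the background and those of epithelium were not. All 5 blood markers (Gata1, Klf1, Hbb-y, Hba-x and Ptprc) were at or below the array median on every array of both days, and 0 of 10 blood genes and 0 of 10 trophoblast genes passed in the limma fit. At an unadjusted p under 0.05 there were 2 blood genes, 1 in each direction, and 2 trophoblast genes, both lower. Of all 22180 genes 5182 reached that p, in either direction. Runx1, a blood stem cell factor, came to -0.43 (adjusted p = 0.118), and the trophoblast factors Tfap2c and Ascl2 to -0.50 and -0.39 (adjusted p = 0.211 and 0.186). Of 12 endothelial genes Cdh5, the endothelial cadherin, was higher (2.21 ± 0.54, not passing with any wide array left out) and Pecam1 and Eng were lower (-1.45 ± 0.26 and -1.01 ± 0.27, 1 of them with a wide array left out). Pecam1 is also a surface protein of mouse stem cells, and Tie1 and Emcn, 2 of the 5 endothelial markers, were not above the median on any day 21 array. Of 18 epithelial genes the keratin gene Krt18 was higher (1.16 ± 0.22), E-cadherin, Cdh1 (-0.79 ± 0.20), Aqp3 (-0.86 ± 0.26) and Spint2 (-0.60 ± 0.15) were lower, and 14 did not pass. With a wide array left out 0 to 1 were higher and 0 to 1 lower. The mean of 5 epithelial markers was 7.00 on the narrow and 8.18 and 8.67 on the wide arrays of day 21, against 6.81 and 6.94 on the narrow and 7.98 on the wide array of day 0, and 0 of the 5 were at or below the median on every day 21 array. Of 12 immediate early genes, which handling can induce, 4 (33.3%, 3 to 4 with a wide array left out) were higher, Fos by 1.43 ± 0.29, Jun by 1.36 ± 0.20, Atf3 by 1.23 ± 0.14 and Egr1 by 0.97 ± 0.13, and 0 were lower. The part of handling in other changes was not tested.

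**Figure D3:**
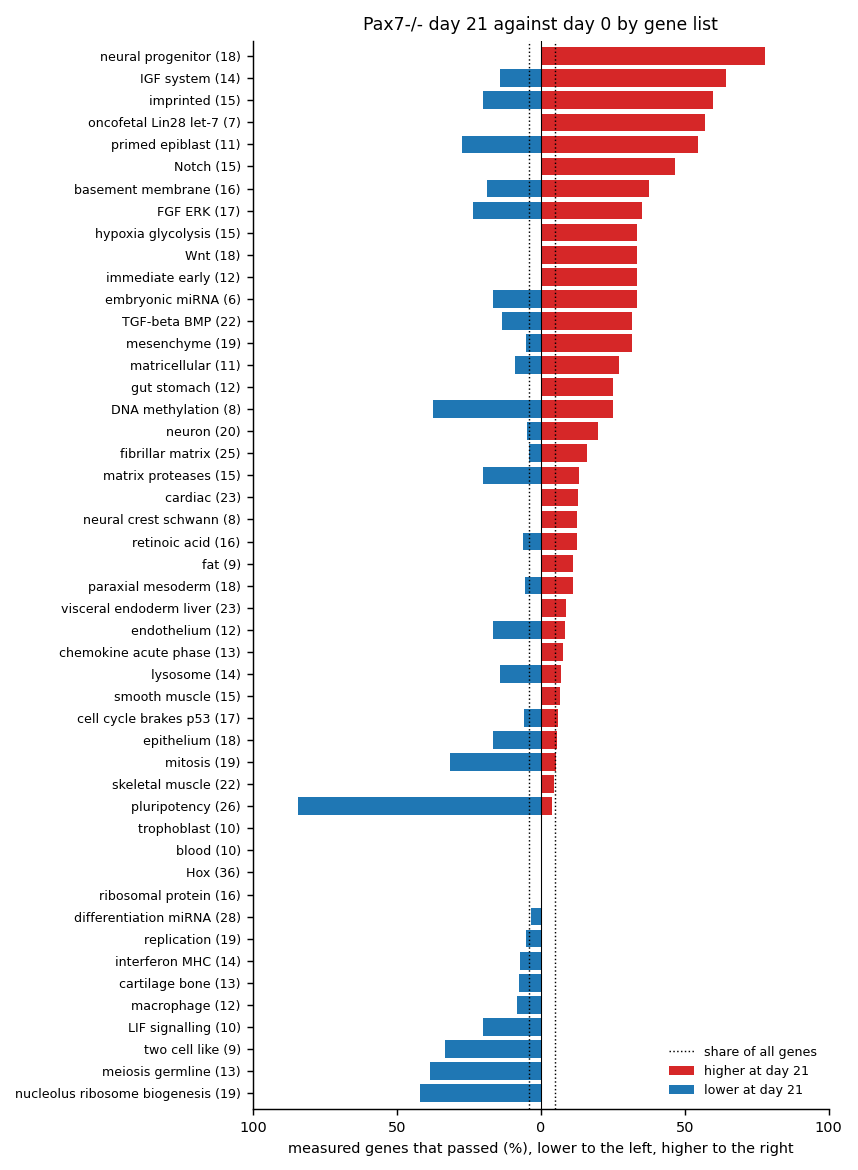
Share of the measured genes of each list (number in brackets) that passed in Pax7-/- day 21 against day 0, with genes that were lower to the left of 0 and genes that were higher to the right (%). Dotted lines mark the share of all genes, 4.04% lower and 4.92% higher; pluripotency genes reach 84.6% lower and neural progenitor genes 77.8% higher.

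The embryoid bodies of day 7 place these changes in time. From day 0 to day 7, 857 genes passed (3.86%), 454 higher (2.05%) and 403 lower (1.82%), and from day 7 to day 21 185 genes (0.834%), 101 higher (0.455%) and 84 lower (0.379%). These steps share arrays with the comparison of day 21 with day 0, so values are given side by side. Leaving out the narrow day 21 array (replicate 1) moved the 185 to 548, and leaving out the wide ones to 102 (replicate 2) or 46 (replicate 3). Without replicate 2 of day 0 the 857 became 429.

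Pluripotency genes fell in part by day 7, with a median step of -1.13 log2, and of -0.67 from day 7 to day 21. Of the 26, 14 were lower at day 7 than at day 0 and 3 were lower at day 21 than at day 7. Nr0b1 changed by -3.50 ± 0.44 log2 in the first step and -1.01 ± 0.45 in the second, and Zfp296 by -3.47 ± 0.27 and -0.83 ± 0.28, of which the second step passed for neither (adjusted p = 0.385 and 0.198). Tdgf1 fell in like steps of -1.84 ± 0.30 and -1.86 ± 0.31 (adjusted p = 0.00199 and 0.00824), and Dppa2 of -1.70 ± 0.33 and -1.79 ± 0.34 (adjusted p = 0.00692 and 0.0176). Lin28a came to -0.33 ± 0.13 in the first step and 0.84 ± 0.13 in the second (adjusted p = 0.211 and 0.00704).

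At day 7, 6 of the 16 basement membrane genes and 8 of the 15 imprinted genes were already higher than at day 0, while the gastrokine genes and Sox1 rose after it. Lama1 came to 2.20 ± 0.20 log2 in the first step and -0.78 ± 0.20 in the second, Lamb1 to 2.34 ± 0.22 and -0.81 ± 0.22, and Peg3 to 2.72 ± 0.18 and -0.73 ± 0.18, the second step not passing in any of them (adjusted p = 0.0911, 0.115 and 0.0786). Gkn2 read 6.05 and 5.97 on the narrow arrays of day 7 and 7.31 on the wide one. Its first step of 0.91 ± 0.40 did not pass (adjusted p = 0.263), and its second was 4.42 ± 0.41 (adjusted p = 0.000113). Sox1 came to 0.01 ± 0.25 and then to 2.19 ± 0.26, and Otx2 to 0.20 ± 0.26 and then to 1.50 ± 0.27. Fabp7 was the exception among them: it rose by 3.16 ± 0.61 in the first step (adjusted p = 0.00689), with -0.13 ± 0.62 in the second. Of the 18 neural progenitor genes 1 was higher in the first step and 5 were higher in the second.

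**Figure D4:**
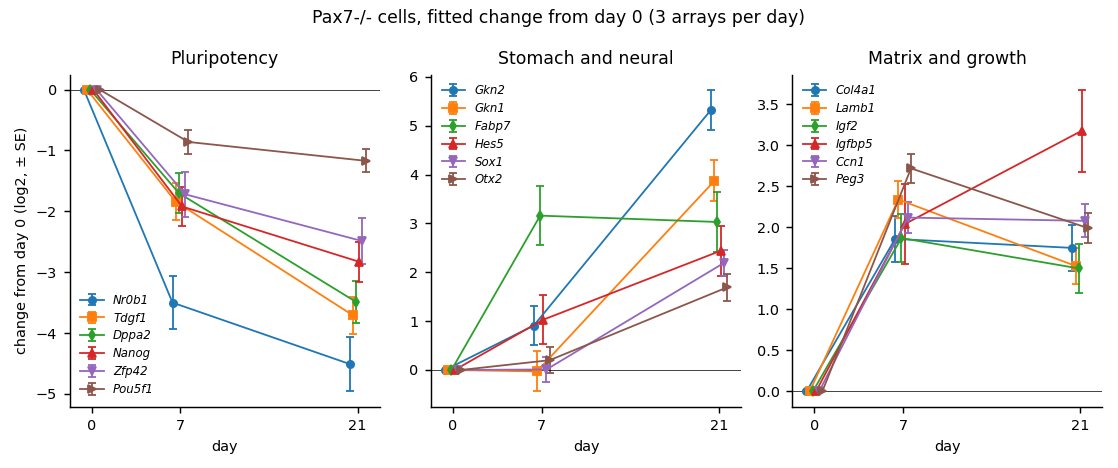
Fitted change from day 0 (log2, bars are SE, 3 arrays per day) at days 0, 7 and 21 in Pax7-/- cells, for pluripotency genes (left), stomach and neural genes (middle) and matrix and growth genes (right). Nr0b1 is at -3.50 by day 7, Gkn2 and Sox1 leave 0 mainly after day 7, and Lamb1 and Peg3 are highest at day 7.

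Pax7+/+ cells, measured on arrays of their own, changed in 3240 genes from day 0 to day 21 (14.6%), 1102 higher (4.97%) and 2138 lower (9.64%). Whether a gene's change differed between genotypes was tested as Pax7-/- change minus Pax7+/+ change. It differed for 412 genes (1.86%), in 333 (1.5%) with a positive and in 79 (0.356%) with a negative difference. At an unadjusted p under 0.05 there were 3025 genes. Without the term for the kind of array 0 passed, with 260 at an unadjusted p under 0.05. With arrays scaled to the same SD the split was 195 and 132, and after quantile normalization 346 and 207. Leaving out Pax7+/+ day 0 replicate 1 or 2 gave 136 and 52, or 220 and 49, and leaving out Pax7-/- day 0 replicate 1 or 3 gave 194 and 60, or 219 and 51. Without Pax7-/- day 21 replicate 2 it was 206 and 51.

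For the ranked gene with the largest rise and that with the largest fall no difference was detected. The pluripotency list had a median of -1.66 log2 in Pax7-/- and of -1.57 in Pax7+/+ cells. These like medians hide differences of single genes. Of its 26 genes, 4 had a positive and 2 a negative difference that passed, against 1.5% and 0.356% of all genes. Gkn2 came to 5.33 ± 0.41 in Pax7-/- and 5.97 ± 0.40 in Pax7+/+ cells, with a difference of -0.63 ± 0.57 (adjusted p = 0.69), and Nr0b1 to -4.51 ± 0.45 in Pax7-/- and -6.17 ± 0.44 in Pax7+/+ cells, with 1.66 ± 0.63 (adjusted p = 0.236). Neither p shows that the genotypes changed alike.

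Among the genes ranked, the largest negative difference was in Lama1, whose rise was smaller in Pax7-/- cells. It came to 1.41 ± 0.20 log2 in Pax7-/- and 5.01 ± 0.20 in Pax7+/+ cells, a difference of -3.60 ± 0.28 (adjusted p = 1.23e-05), -4.00 on narrow and -3.31 on wide arrays. In Pax7+/+ cells Lama1 read 10.99 and 10.77 on the narrow and 11.34 on the wide array of day 21, against 5.62 on both narrow arrays and 6.82 on the wide array of day 0. Pax7-/- cells thus stood above Pax7+/+ cells at day 0 and below them at day 21 on either kind of array. Lamb1 (-2.32 ± 0.31), Gata6 (-1.99 ± 0.39), the collagen-modifying enzyme Plod2 (-1.98 ± 0.32) and Srgn, the proteoglycan serglycin (-2.46 ± 0.22), rose less in Pax7-/- cells as well. Cubn, the endocytic receptor of visceral endoderm, came to -1.35 ± 0.43 in Pax7-/- and 1.47 ± 0.43 in Pax7+/+ cells (difference -2.82 ± 0.61, adjusted p = 0.0271). The change of Cubn within Pax7-/- cells did not pass.

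Tmem64 and Zfp296 had negative differences with a fall in Pax7-/- cells. Tmem64, a membrane protein gene, read 5.52 log2 on the narrow and 7.83 and 7.60 on the wide arrays of Pax7-/- day 21, against 7.67 and 7.90 on the narrow and 9.79 on the wide array of day 0 (-2.17 ± 0.12). In Pax7+/+ cells it read 5.75 and 5.77 on the narrow and 7.66 on the wide array of day 21, against 5.63 and 5.40 on the narrow and 7.53 on the wide array of day 0. The genotypes read alike at day 21 and apart at day 0, with a difference in change of -2.38 ± 0.17 (adjusted p = 8.94e-06). Zfp296 changed by -4.31 ± 0.28 in Pax7-/- and -2.02 ± 0.27 in Pax7+/+ cells, and here too the day 21 readings lay together, 5.60 to 6.03 in Pax7-/- against 5.48 to 5.75 in Pax7+/+ cells. The Pax7-/- day 0 readings of 9.61, 10.37 and 9.44 stood above the Pax7+/+ ones of 7.26, 7.08 and 8.58.

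Among the positive differences, several genes rose in Pax7-/- and fell in Pax7+/+ cells. Dnmt3b came to 1.30 ± 0.20 log2 in Pax7-/- and -0.64 ± 0.20 in Pax7+/+ cells (difference 1.95 ± 0.28, adjusted p = 0.0025). The gap junction gene Gja1 came to 0.98 ± 0.16 in Pax7-/- and -0.83 ± 0.15 in Pax7+/+ cells. The glycine cleavage enzyme Gldc came to 0.62 ± 0.16 in Pax7-/- and -1.24 ± 0.15 in Pax7+/+ cells, the junction protein Tmem47 to 1.13 ± 0.17 in Pax7-/- and -0.68 ± 0.16 in Pax7+/+ cells, and the stress-induced enzyme Chac1 to 1.21 ± 0.30 in Pax7-/- and -0.97 ± 0.29 in Pax7+/+ cells. For others the change was less negative in Pax7-/- cells. Cth, of cysteine synthesis, came to -1.51 ± 0.21 in Pax7-/- and -3.44 ± 0.21 in Pax7+/+ cells, and Ptgs2, the inducible cyclooxygenase, to -1.04 ± 0.33 in Pax7-/- and -3.25 ± 0.33 in Pax7+/+ cells, the Pax7-/- change of Ptgs2 not passing (adjusted p = 0.0641). Taf1d, of RNA polymerase I transcription, came to -0.82 ± 0.34 in Pax7-/- (adjusted p = 0.147) and -2.75 ± 0.33 in Pax7+/+ cells on the one chosen of its 11 probe sets. The differences of Ptgs2 and Taf1d passed only in part when single arrays of either genotype were left out (1.91 to 2.56 and 1.64 to 2.27), and that of Cubn did not pass without Pax7-/- day 0 replicate 2 or 3 or day 21 replicate 1 (-2.64, -2.82 and -2.84). Cell cycle and nucleolar genes had mostly positive differences, 6 of 19 replication, 7 of 19 mitosis and 4 of 19 nucleolar genes passing against 1.5% of all genes, and 0 of these lists' genes had a negative difference that passed.

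**Figure D5:**
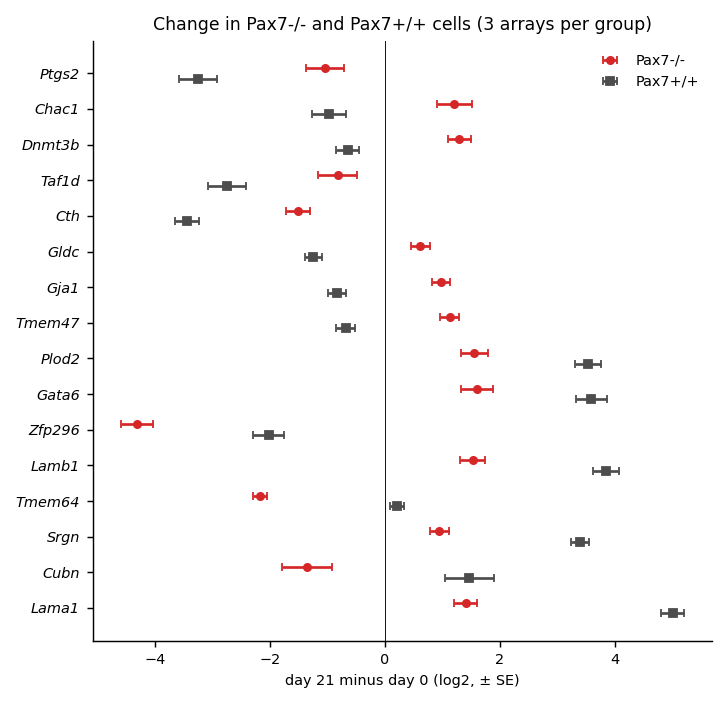
Change from day 0 to day 21 (day 21 minus day 0, log2, bars are SE, 3 arrays per group) in Pax7-/- (red circles) and Pax7+/+ cells (grey squares). Shown are the 8 largest positive and 8 largest negative differences that passed among the genes ranked. Lama1 stands at 1.41 in Pax7-/- and 5.01 in Pax7+/+ cells, and Tmem64 at -2.17 in Pax7-/- and 0.21 in Pax7+/+ cells.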

How the data were processed

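RNA of 18 mouse samples was measured on 1-colour arrays, with 3 samples labelled as biological replicates in each of 6 groups (genotype by day). The authors deposited 1 log2 expression value per probe set and sample, and the submitters' processing notes name RMA and Partek, with no versions or order given. Whether all arrays were summarised in a single RMA run is not given in the sources used here. Of 41345 probe sets, 23521 had 1 gene symbol in the platform annotation, 1814 had several and 16010 had none. Where several probe sets shared a gene, that with the highest average intensity across the 18 arrays was kept, leaving 22180 genes, of which 1082 had several probe sets.

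Group means and the kind of array were fitted with limma 3.58.1 (lmFit, contrasts.fit, eBayes) in R 4.3.3, with 11 residual degrees of freedom and Benjamini-Hochberg adjustment over all genes. An array was called wide where the SD over its probe sets was above 1.6 log2. Errors of changes are SE. Python 3.11.15, pandas 2.3.3 and matplotlib 3.10.9 prepared tables and figures. In simulated data on 22180 genes for day 21 against day 0 in Pax7-/- cells, the fit recovered 31.7% of changes of 0.5 log2, 83.6% of 1 log2 and 100% of 2 log2. These changes were given to 63, 73 and 64 genes, against 1989 that passed in the data. The shares recovered hold for that setting alone. The number of arrays limits the precision.

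The text names the 12 largest rises and falls that passed, were at least 2-fold and did not overlap within either kind of array, up to 4 members of each gene list that passed or up to 2 where none did, and the 8 largest differences between genotypes in each direction. Both rankings passed over predicted or numbered genes and small nucleolar, spliceosomal, transfer and numbered microRNAs. The differences ranked also had the same sign on both kinds of array. Other list members named were chosen after their values were seen. The comparison and all lists were chosen with earlier results of these data known. Alternatives covered the array term, scaling, filters, probe set choice, thresholds and left-out samples. The same replicate numbers did not mark shared deviations and were not used as pairs.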

Additional observations from a re-analysis of the deposited data

Results flagged for a closer look

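Each gene below had a change from day 0 to day 21 that differed between Pax7-/- and Pax7+/+ cells in a test of the difference itself (limma, Pax7-/- change minus Pax7+/+ change, log2, adjusted p under 0.05). Among the genes with the largest differences they were Ptgs2 (2.21), Chac1 (2.18), Dnmt3b (1.95), Taf1d (1.93), Cth (1.92), Gldc (1.85), Tmem47 (1.81) and Gja1 (1.81) on the positive side. On the negative side they were Lama1 (-3.60), Cubn (-2.82), Srgn (-2.46), Tmem64 (-2.38), Lamb1 (-2.32), Zfp296 (-2.28), Gata6 (-1.99) and Plod2 (-1.98).

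Among the other genes named for their Pax7-/- change, the axon protein gene Dpysl2 (1.56), the demethylation enzyme gene Tet1 (1.35), the fetal genes Hmga2 (1.58), Lin28a (1.23) and Igf2bp3 (1.17), and the kinesin gene Kif11 (0.71) had positive differences. So did the Wnt receptor genes Fzd2 (1.78) and Fzd7 (1.26), the cadherin gene Cdh2 (1.71), the gelatinase gene Mmp2 (1.77) and the protease inhibitor gene Timp1 (1.47). Negative differences were found for the endocytic adaptor gene Dab2 (-1.51), the keratin gene Krt18 (-1.83), the hypoxia factor gene Epas1 (-1.71) and the matrix gene Sparc (-1.0). The cause of these differences was not tested.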

How the results depend on the processing

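Counts below are genes higher and lower at day 21 against day 0 in Pax7-/- cells (1092 and 897), then passing from day 7 to day 21 (185), from day 0 to day 7 (857), and with a positive or negative difference from Pax7+/+ cells (333 and 79), where these moved by over 1.5 times. Without the array term they were 7 and 1, 3, 0 (354 at an unadjusted p under 0.05), and 0 and 0. On narrow arrays alone they were 202 and 198, and 90. On wide arrays alone they were 2994 and 2722, 815, 3222, and 357 negative differences. With the array kind as a random block they were 109, 532, and 135 and 33. With arrays scaled to 1 SD the differences were 195 and 132, and after median centring the main counts were 880 and 1120. With the 9 Pax7-/- arrays alone 694 genes were higher and 61 passed after day 7, and with the 6 arrays of both days 244 and 273 passed. Quantile normalization gave 332, 1410 and 207 negative differences. Array weights gave 770 and 551 positive differences. A change fitted per kind of array, chosen after seeing the data, gave 2623 and 2340, 1187, 4072, and 1281 and 671. At an adjusted p under 0.01 they were 366 and 350, 50, 357, and 97 and 22. At 2-fold or more they were 325 and 235, 63, 228, and 156 and 43. With the replicate block, whose numbers did not pair the samples (correlations of same-numbered deviations -0.308, -0.335 and 0.129), 105 genes passed after day 7 and 49 differences were negative. Leaving out 1 array gave 298 to 1482 higher, 299 to 1054 lower, 46 to 548, 429 to 843, and 136 to 495 positive and 49 to 96 negative differences. The signs of Kif11, Birc5, Gnl3 and Wdr43 turned without the array term (0.09, 0.21, 0.15 and 0.10), for which the cause was not tested. Of 169 values of single genes, 15 kept their call without the array term, 93 on narrow arrays alone and 156 on wide arrays alone. A value that passed in neither fit, such as that of Pax7 or Runx1, also counts as a kept call. Without the array term only the changes of Gkn2, Gkn1, Fzd2, Sox1, Nnat and Zfp296 among these values still passed. Filters on low values, probe set choice and moderation of the variance left all these counts within 1.5 times. Scalings moved the median of all genes by at most 0.07 log2.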

Other observations

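Most genes of inflammation and of lysosomes did not pass between day 21 and day 0 in Pax7-/- cells. Of all genes 4.92% were higher and 4.04% lower, and of the lysosome genes 7.14% and 14.3%. Of 14 interferon and antigen presentation genes Ifitm3, an interferon-induced membrane protein gene, was lower (-1.29 log2), 0 were higher and 13 did not pass. Of 13 chemokine and acute phase genes Chil1, a chitinase-like protein gene, was higher (1.65, not passing with any wide array left out) and 12 did not pass. Of 14 lysosome genes the membrane protein gene Lamp2 was higher (0.44, not passing with any wide array left out), Grn (-0.53) and Lamp1 (-0.52) were lower (1 to 2 with a wide array left out) and 11 did not pass. Of 12 macrophage genes Cd68 was lower (-0.63) and 11 did not pass, and 3 of 5 defining macrophage markers were not above the array median on any day 21 array.

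Of 13 cartilage and bone genes the phosphatase gene Alpl, which stem cells also express, was lower (-1.15, 0 to 1 with a wide array left out) and 12 did not pass. Of 9 fat cell genes Retn, the adipokine resistin, was higher (0.49, not passing with any wide array left out) and 8 did not pass.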
